A study of Caenorhabditis elegans with 16 samples.

Results

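The transcriptome described here is that of untreated worms, the dark minus ATR condition, which was chosen by its label and makes up 4 of the 16 whole-worm RNA-seq libraries of the series. OptIMMuS, the study's model of mechanical muscle stress, uses blue light pulses to contract the body wall muscle of Caenorhabditis elegans that carry a light-gated channel. All 4 conditions used the same strain, PP3189, whose transgene hhIs251 places ChR2(C128S,H134R)-FLAG under the body wall muscle promoter myo-3p, with the unc-54 3'UTR behind it and Cbrunc-119(+) beside it. The dark minus ATR worms therefore carried the channel too. They were fed E. coli OP50 without all-trans retinal (ATR), the cofactor without which the channel stays non-functional, and were kept in the dark at 18 °C. The other groups, each with 4 libraries, were dark plus ATR (0.1 mM ATR, no light), light minus ATR (5-s pulses with 20 min of darkness between them over 8 h, no ATR) and light plus ATR (the same pulses with 0.1 mM ATR). In all groups the last 16 h of growth to adulthood took place at 18 °C, and the treatment was given to young adults. The study's methods describe the 4 libraries of each condition as independent biological replicates whose RNA was isolated together.

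The young adult hermaphrodite is a small animal whose gonad makes up much of its volume. The gonad first makes sperm and then switches to oocytes, the intestine secretes vitellogenins (yolk lipoproteins) that growing oocytes take up, and the epidermis builds a collagen cuticle that is replaced at each molt. A poly(A) RNA library of whole worms therefore mixes germline, intestine, epidermis, muscle and neurons. A lower level of a tissue's transcripts can mean that the tissue gave less of the RNA or that its cells held fewer of these transcripts. These cannot be told apart in such a library.

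The dark minus ATR libraries held 19264325 to 28704269 estimated counts on genes, against 25804736 to 32374032 in dark plus ATR, 19859400 to 29379938 in light minus ATR and 21266999 to 25416073 in light plus ATR. Protein-coding genes took 99.24 to 99.44% of the dark minus ATR counts. Residual ribosomal RNA took 0.130, 0.220, 0.275 and 0.299% in replicates 1, 2, 3 and 4, and ERCC spike-in sequences took 0.783, 0.812, 0.796 and 0.953% of all counts. Replicate 4 was thus the deepest library and had the highest share of both. Pearson's r of log2 TPM between pairs of the 4 libraries was 0.995 to 0.996 across genes, which are not independent replicates. TPM, a measure of the number of transcripts, is the count per base of annotated exon, scaled to the same total in each library, and is the scale on which levels of different genes are compared here. Shares of counts are given where the question is how much of the library a group of genes occupied, and CPM, the count relative to the TMM-scaled library size, where libraries are compared. Wilson 95% intervals of the shares cover counting error only. Their half-width was at most 0.612% of the share itself for lists with at least 0.5% of counts and at most 3.81% for lists with at least 0.01%.

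Of 19901 protein-coding genes, 12290 (61.8%) had a mean of at least 1 TPM in dark minus ATR, 7400 at least 10, 1589 at least 100 and 156 at least 1000. A count in each of the 4 libraries was seen for 15599 genes, and 1819 had none in any of them. The distribution was steep: the 10 most abundant annotated genes of each library, of any type, held 5.42 ± 0.13% of TPM (SD, n = 4). The first 100 of each library held 32.1 ± 0.921% and the first 1000 held 66.8 ± 0.753%. Genes of protein synthesis filled the top of the ranking. Among nuclear protein-coding genes ordered by mean TPM, ribosomal proteins by name were 14 of the first 20 and 66 of the first 100. A further 8 of the first 100 were cuticle collagens.

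The most abundant transcript was eef-1A.1 (WBGene00001168, chromosome III from 6970026 to 6971712 of WBcel235), which encodes translation elongation factor 1 alpha. It had 9542, 9108, 8112 and 8571 TPM in replicates 1 to 4, a mean of 8833 ± 624 (SD, n = 4), above the highest value of any other gene in every library. The second was rpl-41.2, the gene of a very small ribosomal protein, with 7571, 7808, 7727 and 6451 TPM. Replicate 4 was the lowest for this gene, and its annotated exons span 280 bases. The third was far-2 (chromosome III from 9081828 to 9082511), a member of the secreted fatty acid and retinol binding protein family, with 5550, 5420, 5929 and 6286 TPM. It was the first gene in the order with no role in protein synthesis, and its lowest library stood above the means of all genes ranked below it.

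The next places were held by rps-25 with 5270 ± 205 and rps-23 with 5010 ± 350 TPM, both proteins of the small ribosomal subunit. The cuticle collagen col-119 (chromosome IV from 8978926 to 8979795) followed with 4394, 4056, 4402 and 4817 TPM, and was highest in replicate 4. The yolk protein genes vit-2 (chromosome X from 5101042 to 5106169) and vit-6 (chromosome IV from 8261157 to 8266459) were in the first 10 with 4233 ± 613 and 4147 ± 577 TPM (SD, n = 4). Both were highest in replicate 3, where vit-2 had 5114 TPM against 4185, 3830 and 3802 TPM in replicates 1, 2 and 4. From rps-8 at 4270 TPM to rpl-38 at 4080 TPM, 6 neighbours in the order lay closer together than their SDs of 304 to 613 TPM, so these data do not separate their order. Y37E3.8 (4109 ± 304 TPM), for which the annotation gives no gene name, belongs to this stretch and lies beside rla-1, a ribosomal stalk protein gene on chromosome I. The rest of the first 20 were rla-1, rps-14, rpl-13, rla-0, rpl-2, rps-9, rpl-7 and rps-24, all ribosomal protein genes between 3612 and 3940 TPM. The annotation places rpl-7 over F53G12.9 on the same strand, so its value may include reads of that gene. Of these 20 genes, 18, 19, 18 and 17 were also among the first 20 of replicates 1, 2, 3 and 4 taken singly.

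**Figure D1:**
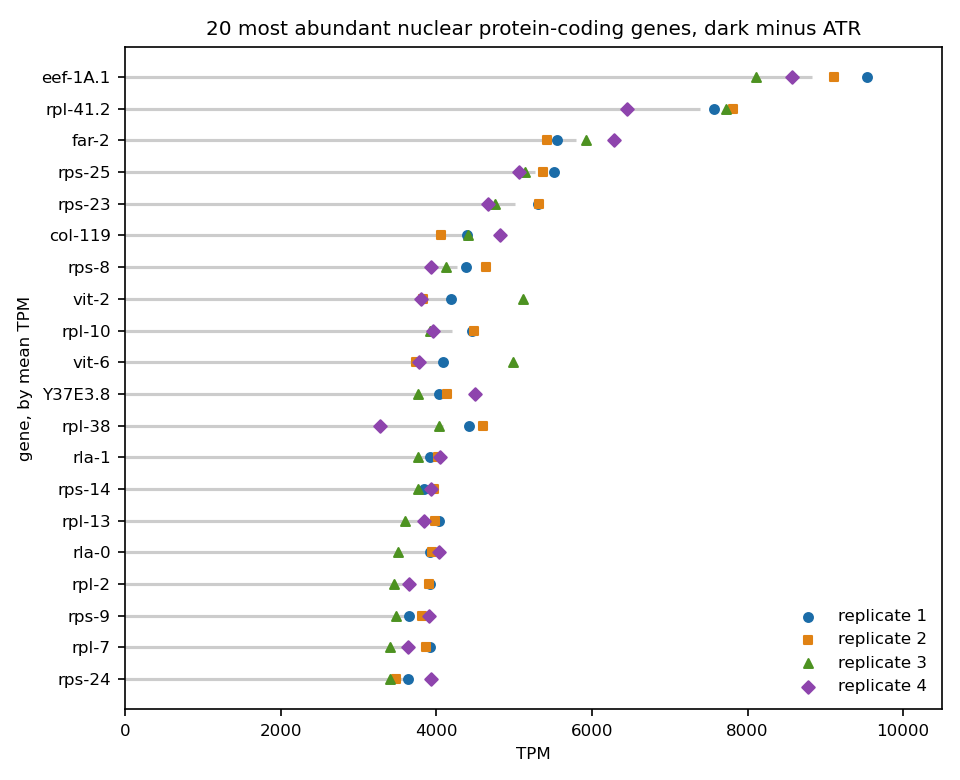
TPM of the 20 most abundant nuclear protein-coding genes in the 4 dark minus ATR libraries. Symbols are replicates and grey lines end at the mean. eef-1A.1 lies at 8112 TPM or more in every library, and vit-2 and vit-6 are set apart by a high replicate 3.

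Ranked by reads rather than by molecules, the yolk genes led. Long transcripts give more reads per molecule, and the vit-2 and vit-6 exons span 4934 and 5064 bases, against 1537 for eef-1A.1. vit-6 took 1.67% and vit-2 1.66% of counts, eef-1A.1 took 1.08%, vit-5 took 0.850% and the elongation factor gene eef-2 took 0.496%. Among the next were ant-1.1, which encodes a mitochondrial ADP/ATP translocase, with 0.364%, and the chaperone genes hsp-90 with 0.332% and hsp-1 with 0.317%. The first 10 genes of each library in its own order by counts held 7.52 ± 0.397% of counts, and the first 100 held 24.5 ± 0.236%.

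Ribosomal proteins were the largest family. The 79 genes held 10.9, 11.2, 9.81 and 10.5% of counts in replicates 1 to 4 and 22.8 ± 1.00% of TPM, and all but 1 had at least 1 TPM. Replicate 3 had the lowest share. The 42 translation factor genes added 2.92 ± 0.188% of counts, also lowest in replicate 3 with 2.68%. After eef-1A.1 their most abundant members were eef-1G (2236 TPM) and eef-2 (2228 TPM), both of the elongation machinery. The 33 proteasome genes, which encode the protease that degrades ubiquitylated proteins, held 0.875 ± 0.052%, and the 21 vacuolar ATPase genes, which encode the pump that acidifies lysosomes, held 0.562 ± 0.0148%.

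By share of counts yolk came next, while by TPM the collagens (4.32%) stood above it. The 6 vitellogenin genes held 4.84, 4.59, 5.77 and 4.66% of counts and 1.26 ± 0.163% of TPM. Replicate 3 was the highest on both scales and stood apart from the other 3 libraries by more than those differed among themselves. By level the order was vit-2, vit-6, vit-5 (2200 ± 244 TPM), vit-4 (863 ± 88.3), vit-3 (789 ± 86.1) and vit-1 (369 ± 39.9). The genes vit-3, vit-4 and vit-5 encode near-identical proteins, so the split of reads among them is uncertain.

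Transcripts of oocytes and of the germline were abundant throughout. The 17 oocyte and eggshell genes held 1.65, 1.70, 1.74 and 1.66% of counts and lay between 117 and 2147 TPM. The highest were cpg-2 (2078, 2162, 2199 and 2149 TPM), which encodes a chondroitin proteoglycan of the eggshell, perm-4 (1562 ± 47.6) and cpg-1 (1456 ± 79.7). rme-2, the gene of the yolk receptor through which oocytes take up vitellogenin, had 516, 491, 536 and 504 TPM. The 4 libraries differed little in these genes, with a median biological CV of 3.86%. The 32 germline genes held 1.74 ± 0.0461% of counts, led by the RNA-binding proteins cey-2 (2563 ± 112.3 TPM) and car-1 (1595 ± 33.9) and the RNA helicase cgh-1 (1480 ± 82.7). The lowest of the 32 had 15.1 TPM.

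With the vitellogenins set aside, the lists of intestinal, muscle, neuronal and pharyngeal genes took smaller shares. These shares depend on which genes and how many a list holds, so they are not the shares of whole tissues. The 18 intestinal genes other than vitellogenins held 0.685 ± 0.0379% of counts, and the most abundant encode digestive or lysosomal proteases, asp-1 with 2551 ± 112.5 TPM and asp-3 with 1020 ± 95.3 TPM. The transcription factor gene elt-2, which specifies the intestine, had 13.4 TPM. The whole family of aspartyl and cathepsin proteases, which adds cpl-1 (1798 ± 210 TPM) and asp-6 (1603 ± 73.1 TPM), held 1.11 ± 0.0804% of counts and was highest in replicate 4 with 1.22%.

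The 30 body wall muscle genes held 1.02, 0.989, 1.07 and 1.07% of counts in replicates 1 to 4, and each had at least 1 TPM. The most abundant were mlc-2, a myosin light chain gene (1169, 1152, 1235 and 1177 TPM), act-4, an actin gene (1020 ± 48.5 TPM), pat-10, the body wall troponin C gene (926 ± 133 TPM), and cpn-3, a calponin-like gene (688 ± 15.9 TPM). Among the genes of the myosin and chaperone network that the study addresses, unc-54, the major body wall myosin heavy chain, had 247, 230, 285 and 236 TPM and was 567th in the order. The transgene carries the unc-54 3′UTR, and whether its reads entered this value was not tested. The second body wall myosin gene, myo-3, whose promoter drives the channel, had 24.9, 20.4, 25.6 and 21.3 TPM. Both were highest in replicate 3 and lowest in replicate 2. The myosin chaperone gene unc-45 had 27.4 ± 1.297 TPM and the ubiquitin ligase gene nhl-1 had 10.2 ± 0.601 TPM.

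The 27 neuronal genes together held 0.0565 ± 0.000992% of counts, and 20 of them had at least 1 TPM. Genes of vesicle release and peptide processing led: snb-1, a synaptobrevin, with 214 ± 9.73 TPM, sbt-1 with 76.5 ± 1.32, egl-21 with 58.1 ± 1.67 and egl-3 with 40.9 ± 2.25 TPM. Neuropeptide and insulin genes were a wider group, of which 114 of 145 had at least 1 TPM. nlp-77 was the highest at 770 ± 61.1 TPM. Of 1310 chemoreceptor genes, by contrast, 10 reached 1 TPM, and 598 had no count in any of the 4 libraries. The highest was sri-40 at 55.8 ± 3.69 TPM. In the 4 libraries together, no count allows a level of up to 0.0329 CPM. The 14 pharyngeal genes held 0.0485 ± 0.00387%, led by tni-4 and dod-6 (89.5 and 81.1 TPM).

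Other families of environmental response and regulation were broad but low. Of 267 nuclear hormone receptor genes 153 had at least 1 TPM, and together they held 0.177 ± 0.00598% of counts, with nhr-114 (124 ± 9.78 TPM) and nhr-49 (74.8 ± 4.65 TPM) at the head. The corresponding counts were 79 of 239 C-type lectins, 106 of 321 F-box genes and 43 of 75 cytochrome P450 genes. One lectin, clec-87, had 1978 ± 70.7 TPM, well above the next, clec-63 (445 ± 7.04 TPM). The heat shock family held 0.958 ± 0.0675% of counts, of which the constitutive chaperones hsp-90 (1773 ± 140 TPM) and hsp-1 (1924 ± 160 TPM) took 0.332 and 0.317%. The 36 mitochondrially encoded genes held 0.233, 0.253, 0.313 and 0.230%, highest in replicate 3, with the oxidase subunit gene ctc-1 (792 ± 140 TPM) and the cytochrome b gene ctb-1 (525 ± 134 TPM) leading.

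**Figure D2:**
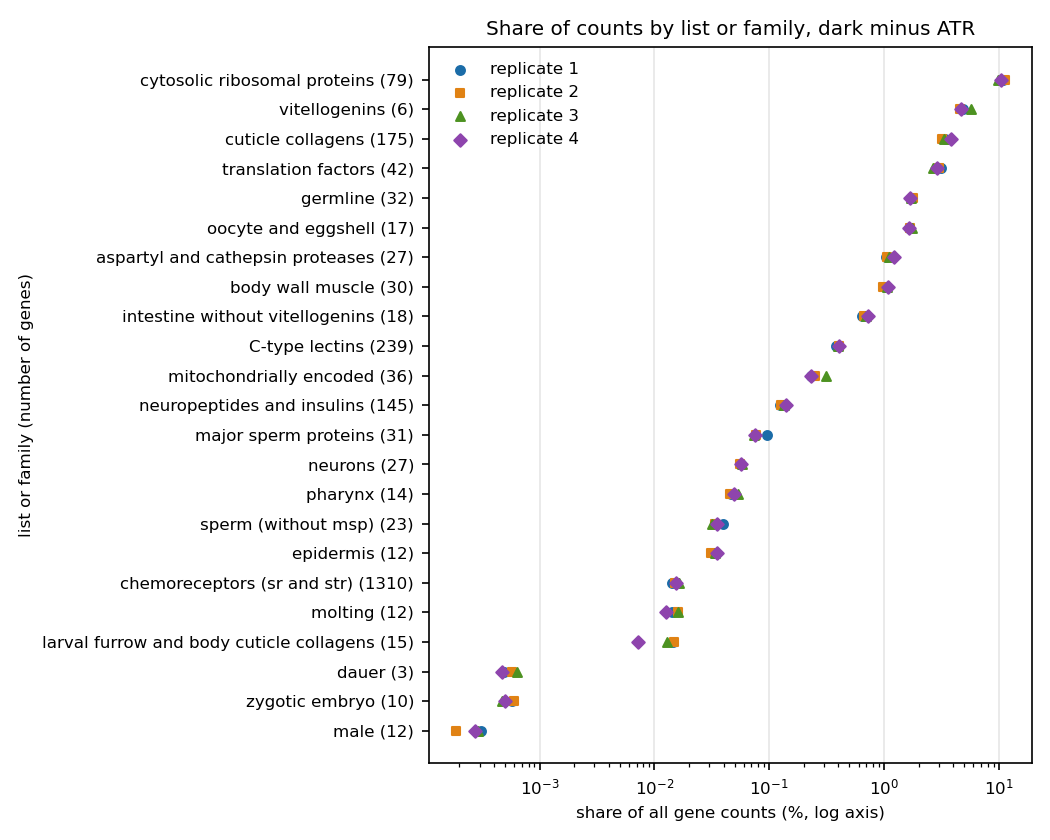
Share of counts, in percent on a log axis, taken by tissue lists, stage lists and the main gene families in the 4 dark minus ATR libraries, with the number of genes in brackets. Symbols are replicates. Ribosomal proteins (10.6% on average) and vitellogenins (4.97%) lie at the top, and the male, dauer and zygotic embryo lists, below 0.001%, at the bottom.

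Counts were spread unevenly over the chromosomes. Chromosomes I and III held 21.1 and 20.6% of counts with 14.4 and 13.2% of coding genes, and chromosome V held 15.2% with 25.1% of coding genes. Chromosome X held 9.20, 9.10, 10.1 and 9.37%, against 13.6% of coding genes. Of these, the 5 X-linked vitellogenin genes made up a large part, and without them X held 6.01, 6.03, 6.27 and 6.24%.

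The cuticle was represented by a few collagens at very high level and many at low level. The 175 collagen genes held 3.37, 3.22, 3.32 and 3.83% of counts, and 11 of them had no count in any library. The first 10, namely col-119, col-140, col-20, col-122, col-93, col-124, col-178, col-181, col-19 and col-160, each had at least 1839 TPM and held 64.1% of all collagen TPM. All 10 were highest in replicate 4, by 1.07 to 1.26 times over the lowest library.

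Among the cuticle, molting and timing genes that mark developmental stages, the adult collagen col-19 was by far the highest. col-19 (chromosome X from 421707 to 422691), a collagen made in the adult cuticle, had 1925, 1827, 1940 and 2243 TPM, and lin-29, the transcription factor that drives the switch to the adult epidermis, had 5.23 ± 0.362 TPM. The adult cuticle collagens bli-2 and bli-1, which form struts and are made around the last molt, were low at 2.88 ± 1.63 and 1.21 ± 0.726 TPM, and in replicate 4 had 0.523 and 0.331 TPM. The 15 collagens listed as larval furrow and body cuticle collagens, whose restriction to larvae was not tested, were at 2.40 to 23.4 TPM. The highest were dpy-5 (33.1, 24.99, 21.8 and 13.8 TPM), dpy-4 (28.6, 25.8, 24.1 and 11.3 TPM), dpy-13 (27.98, 26.6, 24.2 and 10.6 TPM) and sqt-3 (20.98, 21.4, 20.2 and 9.29 TPM). In all of these replicate 4 was the lowest, and replicate 1 was the highest for all but sqt-3.

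Of the 12 molting genes, nhr-23, which encodes a receptor that drives the molting cycle, had 38.5 ± 2.58 TPM and no other member exceeded 9.70 TPM. Among the 4 early larval heterochronic genes, whose products set the timing of larval cell fates, lin-28 had 40.9 ± 2.32, lin-14 had 4.36 ± 0.699, hbl-1 had 2.68 ± 0.403 and lin-46 had 0.845 ± 0.151 TPM. Among the genes found of the list named for dauer, the insulin gene daf-28 had 8.02 ± 1.52 TPM, col-2 had 0.389 and cut-6 had 0.159 TPM. The list's TPM was thus mostly that of daf-28, and its share is no measure of dauer larvae. col-6 was not found under that symbol.

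Transcripts of males and of zygotic embryos were near the floor. The 12 male genes held 0.000265 ± 0.0000534% of counts. plg-1, needed for the mating plug, had 1.41 ± 0.240 TPM, and cwp-4 had 0.631, mab-3 0.383, try-5 0.224, ram-5 0.129, cwp-5 0.110, cwp-1 0.0412 and pkd-2 0.0292 TPM. lov-1, cwp-2, cwp-3 and dmd-3 had no count in any library. Of the 10 genes first expressed in the embryo, pes-10 had 2.38 ± 0.100, ceh-51 had 1.11 ± 0.220 and end-1 had 0.850 ± 0.485 TPM, and the other 7, tbx-38, tbx-37, end-3, cnd-1, tbx-35, med-2 and med-1, lay between 0.0263 and 0.580 TPM. Sperm transcripts were present at a low level. The 31 major sperm protein genes, which encode the cytoskeletal protein of sperm, held 0.0965, 0.0765, 0.0737 and 0.0745% of counts, and the highest, msp-59, had 261, 202, 207 and 180 TPM. The other sperm genes held 0.0399, 0.0336, 0.0318 and 0.0349%. Replicate 1 was the highest for both groups. Members of the msp family are near-identical copies, so the values of single genes are uncertain.

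**Figure D3:**
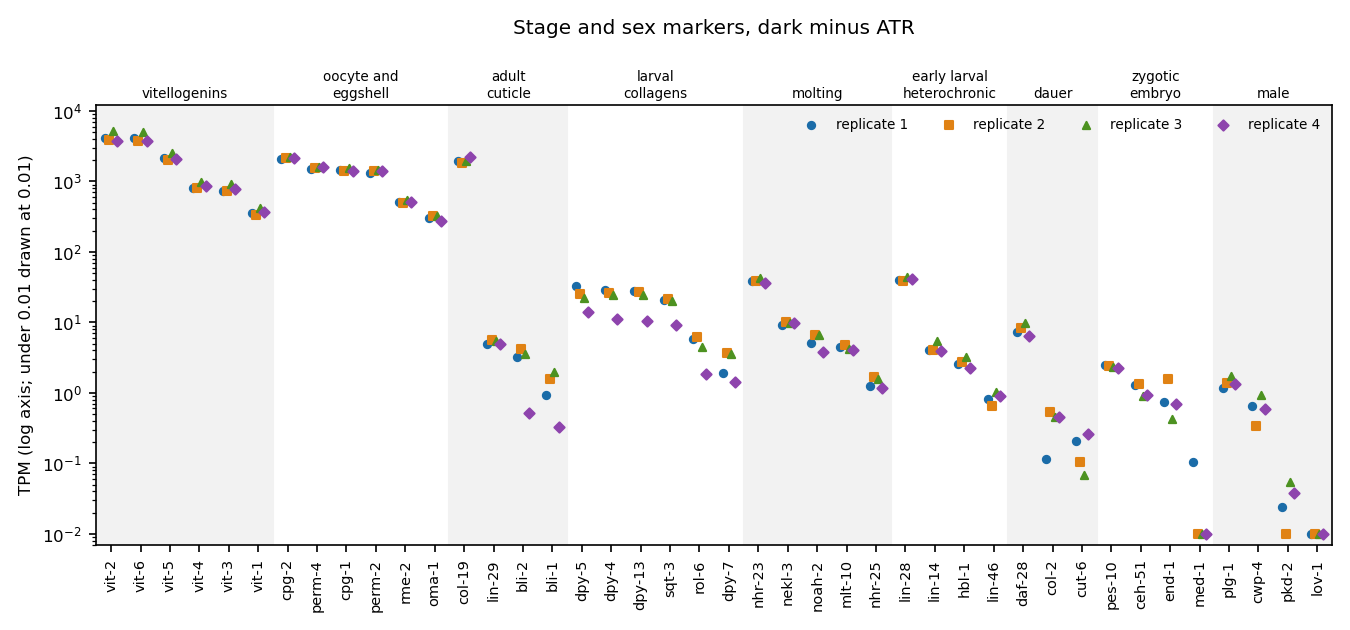
TPM of stage and sex marker genes in the 4 dark minus ATR libraries on a log axis, one symbol per replicate, with values under 0.01 drawn at 0.01. col-19 and the yolk and eggshell genes lie far above the collagens listed as larval, of which the highest, dpy-5, averages 23.4 TPM. The adult cuticle genes bli-2 and bli-1 are low too, and no male or embryonic gene averages more than 2.38 TPM.

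The 4 replicates were close for most genes. For 9060 genes with a mean of at least 5 CPM, the biological CV, which is the CV of TMM-scaled counts after counting error is subtracted, had a median of 5.14%, and 84.9% of genes lay under 10%. The same measure had a median of 2.94% in dark plus ATR, 3.35% in light minus ATR and 4.30% in light plus ATR. By another measure the order differed: edgeR's common dispersion, given as a CV, was 7.71% in dark minus ATR and 8.19% in light plus ATR. It was 5.8% in dark plus ATR and 5.82% in light minus ATR. Without replicate 4 the dark minus ATR median was 3.81%, without the others it was 4.41 to 5.31%. Tissue and family lists differed in spread: neurons (2.85%) and the vacuolar ATPase (2.86%) were tightest, vitellogenins had 8.61%, major sperm proteins 13.9%, mitochondrially encoded genes 16.1% and collagens 23.4%.

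Genes above a biological CV of 0.3 numbered 83 (0.916%). The genes next to the threshold were aman-1 (0.3001) and col-109 (0.3) inside it and R166.6 (0.295) outside. Collagens were 85 (0.938%) of the genes measured, 40 of the 83 above the threshold and 26 of the 50 with the largest values. The members were chosen by this spread, so these counts describe the 4 libraries and carry no test. Of the 83, 75 were also above 0.3 in at least 1 of the other conditions and 28 in all 4. They were highest in replicate 4 in 40 cases, in replicate 1 in 21, in replicate 3 in 14 and in replicate 2 in 8. The lowest library was replicate 2 in 37 cases, replicate 4 in 29, replicate 3 in 11 and replicate 1 in 6. Without replicate 4, 54 genes lay above 0.3, of which 38 were among the 83, and 14 collagens were among the 50 largest.

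**Figure D4:**
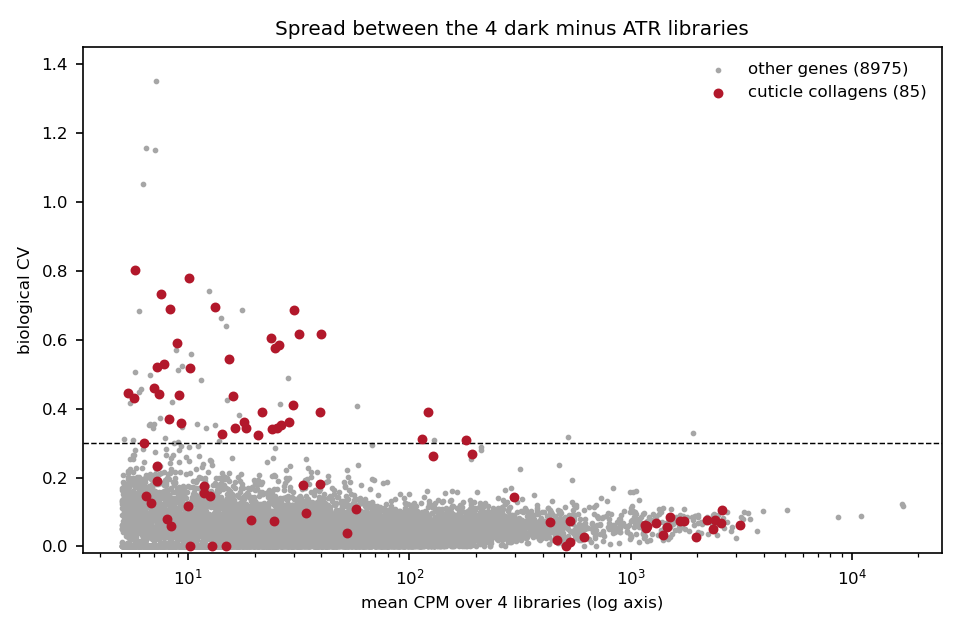
Biological CV against mean CPM (log axis) for 9060 genes in dark minus ATR, with collagens marked and the threshold of 0.3 drawn. Most genes lie under 0.1, and 40 collagens are among the 83 genes above 0.3.

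Among the 15 genes with the largest spread, 6 were collagens, col-91, col-146, col-7, col-88, col-145 and col-133. All 6 were highest in replicate 4 and lowest in replicate 2. col-146 had 9.88, 1.99, 7.74 and 20.9 CPM (biological CV 0.778), col-91 had 4.33, 1.56, 4.79 and 12.4 CPM (0.802) and col-133 had 28.6, 10.4, 22.1 and 58.8 CPM (0.688). Y47D7A.13 (16.8, 4.41, 9.29 and 25.95 CPM) and its neighbour Y47D7A.15 (13.8, 7.10, 9.98 and 28.6 CPM) were also highest in replicate 4 and lowest in replicate 2.

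The 40 variable collagens fell into 2 patterns. In 26 replicate 4 was highest, in 22 of these with replicate 2 lowest, and the highest library exceeded the lowest by a median of 3.42 times (1.96 to 10.5). Their summed level was 828, 508, 705 and 1349 CPM. In the other 14 replicate 4 was lowest, in 12 of these with replicate 1 highest, and their summed level was 260, 241, 187 and 96.5 CPM, with a median fold of 2.64. dpy-4, dpy-5, dpy-13, sqt-1 and sqt-3 belong to this second set, as does col-63 (14.5, 12.04, 6.39 and 2.78 CPM). The sets were formed from these same libraries. In the other conditions, whose libraries did not form them, the mean log2(CPM + 0.1) of the first set ranged from 3.17 to 4.66 in dark plus ATR, 3.62 to 4.32 in light minus ATR and 3.77 to 4.95 in light plus ATR, against 3.29 to 5.08 in dark minus ATR. That of the second ranged from 2.87 to 4.33, 2.36 to 4.40 and 2.52 to 4.86 in the same order of conditions, against 2.60 to 4.07 in dark minus ATR. The opposed levels of dark minus ATR replicate 4 were not seen in the other conditions, where no library had the first set highest and the second lowest. In light plus ATR replicate 4 both sets were at their highest of that condition, 4.95 and 4.86. In light minus ATR replicate 2 both were at their lowest, 3.62 and 2.36. The 2 set means correlated at r = 0.486 over the 12 other libraries, against -0.792 over the 4 libraries that formed the sets.

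**Figure D5:**
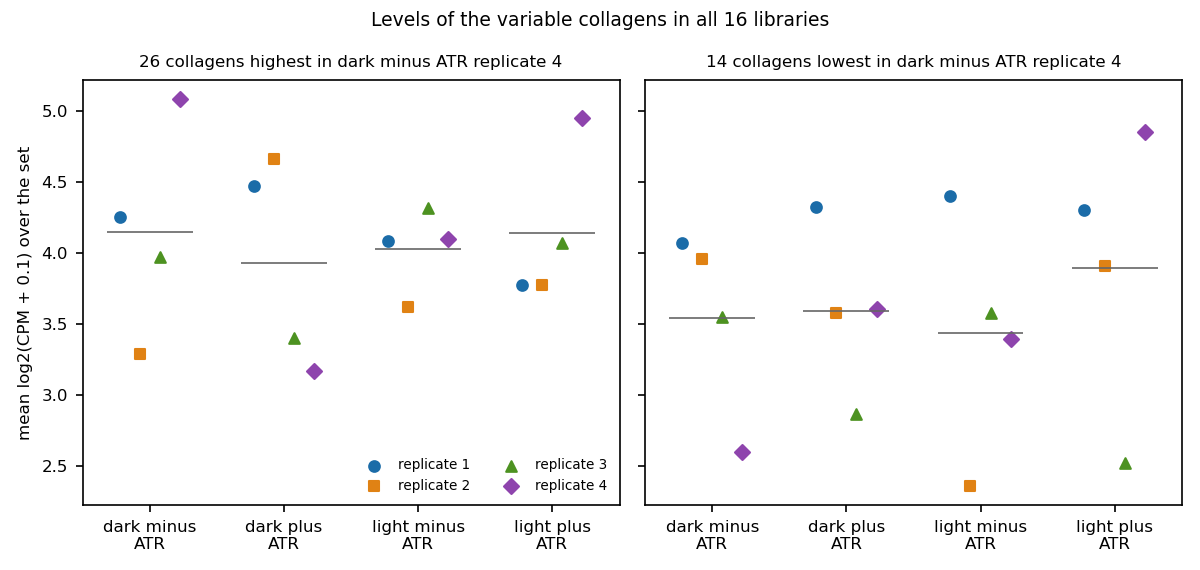
Mean log2(CPM + 0.1) of the 26 collagens highest in dark minus ATR replicate 4 and of the 14 lowest there, in each of the 16 libraries, by condition, with symbols for replicates and lines at the mean. In dark minus ATR the first set reaches 5.08 in replicate 4 while the second is at 2.60, and the libraries of the other conditions are spread as well.

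The remaining variable genes included several whose counts were 0 in some libraries and that have a partner of the same or a related name. nspc-2 had 0, 8.17, 0 and 20.6 CPM and nspc-6 had 24.8, 19.4, 26.1 and 0 CPM, but their sum was 24.8, 27.5, 26.1 and 20.6 CPM. T04A11.1 (0, 0, 13.98 and 14.3 CPM) and T04A11.4 (13.9, 12.1, 0 and 0 CPM) summed to 13.9, 12.1, 13.98 and 14.3 CPM, with a biological CV of 0.0464, and this pair was chosen after its values were seen. clec-209 had 18.5, 10.9, 20.4 and 0 CPM and pes-2.2 had 8.80, 0, 6.54 and 8.68 CPM, and the sums with F56A4.2 and pes-2.1 had biological CVs of 0.127 and 0.123. mct-1 had 3.39, 0, 15.3 and 6.22 CPM beside the far more abundant mct-2 (103.9, 109, 90.6 and 113 CPM), whose level sets that of their sum. The current annotation gives a symbol shared with another gene to 10 of the 83 variable genes, against 28 of the 9060 genes measured. Whether reads were assigned differently between such genes in different libraries was not tested.

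Other variable genes, chosen after their values were seen, had 1 library apart. The neuropeptide gene nlp-26 had 7.00, 6.99, 8.19 and 18.9 CPM, high in replicate 4. The transcription factor gene mxl-3 had 19.7, 18.8, 42.03 and 23.9 CPM and the mitochondrial genes atp-6 and ctc-2 had 47.4, 55.8, 91.1 and 36.7 and 105, 135, 184 and 95.1 CPM, all high in replicate 3. The ribosomal RNA gene rrn-3.1 had 1032, 1891, 2331 and 2415 CPM, low in replicate 1. In replicate 3, the median log2 deviation from the mean of the libraries was 0.18 for vitellogenins and 0.31 for mitochondrially encoded genes and -0.12 for ribosomal proteins. In the same library the deviation of a gene correlated with its log2 exon length at r = 0.263 across genes, against 0.113, -0.111 and -0.192 in replicates 1, 2 and 4. The part of transcript length in these deviations was not tested.

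Few genes separated dark minus ATR from dark plus ATR worms, a comparison that asks what the cofactor alone does. Of 15044 genes tested by edgeR's quasi-likelihood test, 10 (0.0665%) passed a Benjamini-Hochberg adjusted p of 0.05. Of these, 5 were higher (0.0332%) and 5 lower (0.0332%) in dark minus ATR. The groups overlapped in none of the 10, but these were chosen by the test, so the separation adds no support. Genes of xenobiotic metabolism were among both the higher and the lower genes. cyp-35A2, a cytochrome P450 gene, had 55.1, 61.7, 62.7 and 58.5 CPM in dark minus ATR, against 32.01, 35.4, 32.9 and 38.1 CPM in dark plus ATR (log2 fold change 0.78, SE 0.0937, edgeR adjusted p = 0.00157). cyp-35A3 was also higher (1.51), as were ugt-22, a glucuronosyltransferase gene (0.40), C31C9.7 (1.105) and Y25C1A.6 (1.13). cyp-14A4, another cytochrome P450 gene, had 0.181, 0.269, 0.200 and 0.527 CPM in dark minus ATR, against 3.14, 3.62, 1.90 and 1.85 CPM in dark plus ATR (-3.07, SE 0.395, edgeR adjusted p = 0.00157). The lipid binding protein gene lbp-8 (-1.96), the transporter gene pgp-1 (-0.58), E02C12.6 (-1.26) and R12G8.1 (-1.19) were lower too. In dark minus ATR lbp-8 was near the floor, with 0.181, 0.323, 0.0499 and 0.316 CPM in replicates 1 to 4. No count in a single library allows a level of up to 0.1045 to 0.1557 CPM. E02C12.6 and R12G8.1 averaged 0.721 and 0.569 CPM in dark minus ATR. An unadjusted p under 0.05 was reached by 1179 genes, and DESeq2 called 23. The count was 5 without dark minus ATR replicate 2, 6 without dark minus ATR replicate 4 and 6 without dark plus ATR replicate 3. E02C12.6, R12G8.1 and ugt-22 missed the threshold in 9, 8 and 8 of 14 alternative fits, and lbp-8, pgp-1 and Y25C1A.6 in 2 each.

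Light pulses without the cofactor gave no call. Between dark minus ATR and light minus ATR, edgeR's quasi-likelihood test called 0 of 15044 genes (0%), while 2012 had an unadjusted p under 0.05 and DESeq2 called 176, 62 higher and 114 lower. In the edgeR fit the median log2 difference was -0.54 for the 28 major sperm protein genes tested and -0.50 for the 21 other sperm genes, against -0.00 over all genes. edgeR called 0 of either group, and DESeq2 called 1 of each lower. Without dark minus ATR replicate 1 edgeR called 9 genes, and without light minus ATR replicate 2 it called 3.

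The distance to the light plus ATR worms was far larger. By the paper's methods, worms whose vulva had ruptured under treatment were washed out before RNA was isolated. The light plus ATR libraries thus came from intact worms only, and the part of this selection in the differences was not tested. edgeR called 5546 genes (36.9%), 2478 higher (16.5%) and 3068 lower (20.4%) in dark minus ATR. With library totals in place of TMM the split was 908 and 4095, and with ERCC counts it was 396 and 3841, with medians over all genes of -0.10 and -0.16, so small differences depend on the scaling. All 6 vitellogenin genes were higher in dark minus ATR, with a median log2 difference of 1.34 (6 by library totals, 5 by ERCC counts), and their share of counts was 4.97 ± 0.546% in dark minus ATR and 3.25 ± 0.260% in light plus ATR (SD, n = 4 each). vit-3 had 2939, 3000, 3536 and 3123 CPM in dark minus ATR, against 690, 614, 736 and 615 CPM in light plus ATR (log2 fold change 2.25, SE 0.0724, edgeR adjusted p = 5.66e-15).

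Of the 30 body wall muscle genes, 25 were lower and 0 higher in dark minus ATR, with a median of -0.29 (27 and 26 lower by the other scalings), and their share of counts was 1.04 ± 0.0392% in dark minus ATR and 1.33 ± 0.0293% in light plus ATR. All 28 major sperm protein genes tested were lower under each of the 3 scalings, with a median of -0.87, and 16 of 21 other sperm genes were lower and 1 higher. The sperm protein share was 0.0803 ± 0.0109% in dark minus ATR, 0.0952 ± 0.0169% in dark plus ATR, 0.118 ± 0.0189% in light minus ATR and 0.157 ± 0.0347% in light plus ATR. Some other lists and families had medians of similar size to that of muscle. Of the pharyngeal genes 7 of 13 were lower and 0 higher (median -0.37), of the neuronal genes 10 of 26 were lower and 0 higher (-0.32), and of the neuropeptide and insulin genes 59 of 121 were lower and 3 higher (-0.33). Of the aspartyl and cathepsin proteases 12 of 20 were lower and 6 higher (-0.32). Not all tissue lists did so: of the intestinal genes other than vitellogenins 7 of 18 were lower and 3 higher (-0.08). Of the epidermal genes 2 of 12 were lower and 2 higher (-0.09). Smaller differences in the other direction did not hold across scalings: 15 of 17 oocyte and eggshell genes and 30 of 33 proteasome genes were higher with TMM, but 0 of either with ERCC counts, and the germline median of 0.09 turned to -0.06.

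Outside these lists, the genes with the largest differences included acdh-2, an acyl-CoA dehydrogenase gene, with 18.4, 19.1, 24.6 and 24.97 CPM in dark minus ATR, against 0.574, 0.672, 2.00 and 0.721 CPM in light plus ATR (4.44, SE 0.247, edgeR adjusted p = 1.12e-08). nas-3, an astacin protease gene (2.55), B0205.13 (2.36) and F53F1.4 (2.28) were also higher. The aspartyl protease gene asp-12 had 67.0, 67.6, 44.4 and 63.3 CPM in dark minus ATR, against 302, 373, 371 and 364 CPM in light plus ATR (-2.54, edgeR adjusted p = 7.17e-08). ugt-18 (-3.05), srr-6 (-2.69), ech-9 (-2.20) and the arginine kinase gene argk-1 (-1.91) were lower as well. The groups did not overlap for any of these genes, vit-3 included, but they were chosen by their difference, so this adds no support. The 3 comparisons share the dark minus ATR libraries, and 0 genes were called in the same direction in all 3 by edgeR, against 4 by DESeq2. The edgeR count could only be 0, since edgeR called 0 genes against light minus ATR.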

How the data were processed

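RNA-seq of whole worms was made by the authors from poly(A)-selected, stranded libraries with ERCC spike-ins, sequenced as 100 bp pairs and run through an nf-core pipeline on WBcel235. The deposited values were estimated counts per gene, as salmon gives them, and a combined matrix named for TPM held the same estimated counts in all 16 libraries. The submitters' notes name R 4.0.3 and DESeq2 1.30.1 for their tests. No sample column was left unused (0).

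Counts were rounded for tests. Of 46904 genes, 46817 were matched to Ensembl release 115 and 87 (0.00959% of counts) were left out of TPM. TPM was computed from the union of exons. Groups followed the labels. All 16 libraries were fitted in edgeR 4.0.16 (R 4.3.3; TMM, filterByExpr, robust quasi-likelihood test, Benjamini-Hochberg adjustment, threshold 0.05), and each difference is dark minus ATR over the other condition. Biological CV was taken over genes with a mean of at least 5 CPM. DESeq2 1.42.0, other scalings and filters, a replicate block and leaving out single libraries were tried. The fits were tested on simulated data.

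The members and lists were chosen with earlier results of these data known. Named genes were the 20 highest in TPM, the 15 with the largest spread with up to 6 of their leading family, up to 4 members of each list, all members of the stage lists, all genes called against dark plus ATR and, against light plus ATR, the 5 largest changes each way with a mean log2 CPM of at least 1. rme-2, elt-2 and the further genes of single lists were named for their role. Serpin, signal recognition, kinase and transporter genes caught by the chemoreceptor name pattern were removed after their values were seen.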

Additional observations from a re-analysis of the deposited data

Results flagged for a closer look

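Of 78 values tested for a library far from the other 3 of the group, 3 were singled out, where chance singles out about 1 in 20. The adult cuticle genes held 0.1691% of counts in dark minus ATR replicate 4, against 0.1391 to 0.1437% in the other 3 replicates. This was in effect the value of col-19, which held 0.147% of counts on average, against 0.1484% for the whole list. The list members bli-2 and bli-1 were below their means in replicate 4. The major sperm protein genes held 0.09646% in dark minus ATR replicate 1, against 0.0737 to 0.07653% in the others. The ERCC share was 0.9527% in dark minus ATR replicate 4, against 0.7829 to 0.8117% in the others.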

How the results depend on the processing

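On the TPM scale the shares were 1.26% for vitellogenins, 0.8282% for body wall muscle (0.8793% with the length of the longest transcript), 1.194% for oocyte and eggshell genes, 22.8% for ribosomal proteins and 4.315% for collagens, since length no longer counts. Genes with a biological CV over 0.3 numbered 364 at a minimum of 1 CPM, 23 at 20 CPM and 54 to 88 when 1 library was left out. The 54 came without dark minus ATR replicate 4, with 38 of the 83 genes shared and 14 collagens among the 50 most variable, against 26 with all libraries and 8 at 1 CPM.

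Against light minus ATR, 4 genes were called with no filter, 2 with library totals, 3 with ERCC counts, 176 by DESeq2 and 0 to 9 with 1 library left out (9 without dark minus ATR replicate 1, 3 without light minus ATR replicate 2). Against dark plus ATR, DESeq2 called 23, and leaving out 1 library gave 5 to 10 (5 without dark minus ATR replicate 2, 6 without replicate 4, 6 without dark plus ATR replicate 3). Against light plus ATR it gave 4707 to 5386. DESeq2 called 4 genes in all 3 comparisons. The cause of these differences was not tested. Of the named genes' alternatives, 31 of those run lost the call, 249 kept it and 0 reversed.

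The deviations of same-numbered libraries correlated only weakly (r of -0.114 to 0.151). Such values cannot decide whether the numbers pair the samples. With the replicate number as a block the calls were 9, 0 and 5822, and therefore 0 in all 3 comparisons. Depth limits the male, dauer and embryonic lists, whose Wilson 95% half-width reached 33.1% of the share.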
